A study of Mus musculus with 5 samples.

Results

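The vomeronasal type 2 receptor genes of the mouse, named Vmn2r, were taken as every gene on chromosomes 1 to 19 whose RefSeq symbol starts with Vmn2r in the GRCm38.p6 (mm10) annotation. That gave 251 members of 49943 annotated genes, 123 of them protein-coding and 128 listed as pseudogenes; 1 such gene on chromosome X and 20 on chromosome Y were outside the rule. Each member was measured over its gene span with 1 kb on either side, at CpGs with at least 5 reads in every library. A level is the percent of reads that kept a C at those CpGs, which is read as methylated, and it was computed where a region held at least 3 such CpGs. By that minimum 199 members were measured, 117 protein-coding and 82 pseudogenes. Another 24 members had 1 or 2 such CpGs, with levels from 38.2% to 100% and a median of 74.5%, and 28 had 0. Among the 28, 8 had no listed CpG in any library. The 6 protein-coding genes left unmeasured were Vmn2r21, Vmn2r33, Vmn2r46, Vmn2r47, Vmn2r118 and Vmn2r122. The annotated place of Vmn2r122 lies before base 3050345 of chromosome 4, the first CpG listed there.

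Vmn2r genes encode receptors of class C of the G protein-coupled receptors, with a large extracellular part that binds ligands. They are made in neurons of the basal layer of the vomeronasal organ, a sense organ of the nose that detects pheromones and other cues from other animals. The receptors signal through the G protein subunit encoded by Gnao1 and the ion channel encoded by Trpc2. The genes stand in dense runs with many near copies and pseudogenes, a trait of receptor families that gain and lose members fast.

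The DNA came from sperm of C57BL/6 mice, an inbred laboratory strain, collected by swim-out from the cauda epididymis, the last part of the duct where sperm are stored. Bisulfite treatment turns unmethylated C into a base read as T, and the converted genome was sequenced whole. The young group held 3 libraries from animals 2 months old and the old group 2 libraries from animals 18 months old, both of the same strain with no treatment named in the labels. Nothing in the labels says whether a library is 1 animal or a pool, so any p-value here measures the spread between libraries, which may be technical.

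Reads at listed cytosines numbered 67774094 to 97769462 per library, and CpGs inside the Vmn2r regions with 5 reads in every library had a mean coverage of 21.2 to 28.3 reads per library. The family held 17464 listed CpGs, of which 5542 (31.7%) had the coverage needed, against 17.3% of all CpGs listed. The median measured member held 19 such CpGs (range 3 to 464) and 342 to 456 reads per library. At 33 such CpGs within 1 kb of the start of the maternally imprinted genes Peg3 and Nnat, which mature sperm carry unmethylated, the young libraries (replicates 1 to 3, in that order here and throughout) were at 15.9%, 9.98% and 27.0%, and the old libraries (replicates 1 and 2) at 19.03% and 18.7%. No library was near 0 there, young replicate 2 was lowest and young replicate 3 highest. Of the 33 CpGs 25 were in Nnat and 8 in Peg3, each taken at the start with the lowest mean level. Over its 28 listed CpGs, Peg3 alone was at 42.8%, 13.4% and 43.3% in the young and 41.4% and 29.1% in the old libraries. The part of this methylation in the Vmn2r values was not tested. Gene regions of leukocyte markers (3 of 4 measured) were at 85.5% to 93.9% and of epididymal epithelium markers (3 of 4 measured) at 84.2% to 96.7%; a gene's methylation does not give a share of cells.

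Sequence before the starts is shown first because it sets how few CpGs these genes offer there. RefSeq windows of the same build covered 117 starts of 116 members. In the 250 bases before the start, 43 windows (36.8%) held no CG dinucleotide, against 7.87% of 32851 windows of all genes, 26.2% of Vmn1r windows and 44.5% of Olfr (olfactory receptor) windows. The mean was 1.12 CGs per Vmn2r window and 9.86 per window of all genes. Of the 131 CGs in the Vmn2r windows, 93 were listed in at least 1 library and only 8 had 5 reads in every library. These 8 lay in 5 genes, whose 250 bases are printed 5′ to 3′ up to the base before the start, with each CG in capitals.
Vmn2r4, chr3:64410058-64410307, minus strand: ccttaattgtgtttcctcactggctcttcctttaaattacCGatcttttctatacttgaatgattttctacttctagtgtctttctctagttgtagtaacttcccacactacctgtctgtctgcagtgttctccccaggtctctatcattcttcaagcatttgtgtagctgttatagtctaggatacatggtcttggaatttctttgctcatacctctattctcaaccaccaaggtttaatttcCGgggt
Vmn2r23, chr6:123702571-123702820, plus strand: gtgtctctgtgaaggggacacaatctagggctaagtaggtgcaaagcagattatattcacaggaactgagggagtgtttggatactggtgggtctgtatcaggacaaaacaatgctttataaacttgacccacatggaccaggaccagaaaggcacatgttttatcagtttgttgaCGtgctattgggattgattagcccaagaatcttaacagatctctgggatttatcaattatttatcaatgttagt
Vmn2r70, chr7:85569089-85569338, minus strand: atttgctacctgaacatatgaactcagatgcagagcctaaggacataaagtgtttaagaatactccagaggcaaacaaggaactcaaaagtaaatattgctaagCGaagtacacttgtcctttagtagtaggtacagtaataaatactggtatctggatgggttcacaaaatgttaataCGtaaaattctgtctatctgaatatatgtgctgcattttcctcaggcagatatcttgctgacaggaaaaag
Vmn2r97, chr17:18914072-18914321, plus strand: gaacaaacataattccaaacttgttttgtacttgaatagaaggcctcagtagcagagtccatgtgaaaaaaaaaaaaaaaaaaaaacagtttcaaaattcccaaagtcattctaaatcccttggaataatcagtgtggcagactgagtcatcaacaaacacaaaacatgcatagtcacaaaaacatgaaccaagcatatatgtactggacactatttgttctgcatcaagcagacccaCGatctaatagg
Vmn2r103, chr17:19773113-19773362, plus strand: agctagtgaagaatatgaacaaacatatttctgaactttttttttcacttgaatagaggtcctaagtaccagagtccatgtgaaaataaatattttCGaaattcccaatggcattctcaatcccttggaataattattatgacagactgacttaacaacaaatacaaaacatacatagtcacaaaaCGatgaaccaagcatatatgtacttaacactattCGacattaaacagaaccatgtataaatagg

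The CGs in capitals differed in level between these genes in the same sperm. Reads summed over the 5 libraries gave 94.2% of 52 reads at the CG 210 bases before the start of Vmn2r4 and 85.7% of 42 reads at the CG 74 bases before that of Vmn2r23. In Vmn2r70 the CG at 146 bases was at 88.1% of 42 reads and the CG at 71 bases at 90.9% of 33 reads. The single CG of Vmn2r97, 12 bases before the start, was at 43.7% of 87 reads. In Vmn2r103 the CGs at 154, 64 and 30 bases were at 45.7% of 46 reads, 54.9% of 51 reads and 71.9% of 57 reads. At the CG of Vmn2r97 every library was partly methylated, with 50%, 53.8% and 41.4% in the young and 47.1% and 33.3% in the old libraries. The windows of Vmn2r97 and Vmn2r103 share the stretch atgaaccaagcatatatgtact, 22 bases long. It also stands in the windows of Vmn2r95, Vmn2r99 and Vmn2r124, all in the same run of genes on chromosome 17, and in no other of the 32851 windows on either strand. Among the other pairs of the printed windows the longest shared stretch was 9 bases. Vmn2r70 had methylated CGs before its start (88.1% and 90.9%) while its whole region was at 55.0%, the mean of the 5 libraries. By distance from the start, in bins of 2 kb from 6 kb before to 10 kb after it, the 116 genes with a known strand lay between 72.1% and 80.5%, so no bin stood as an unmethylated start.

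Vmn2r regions were less methylated than most genes in sperm, and unevenly so. The median measured member was at 78.1%, with quartiles of 61.5% and 90.5% and a range of 32.2% to 97.4%, while the median of 29108 gene regions measured the same way was 92.9%. Members under 60% numbered 44 (22.1%), against 7.89% of all gene regions. Members at 90% or more numbered 59 (29.6%), against 64.9% of all. The other vomeronasal receptor family, Vmn1r (81 of 372 measured), had a median of 89.3%, and Olfr genes (631 of 1420 measured) one of 91.1%. The mean over members was 74.1%, 73.4% and 75.1% in the young libraries and 76.4% and 74.9% in the old. In each of the 5 libraries that mean lay below the mean over all gene regions, which was 85.7% to 86.7%, by more than the whole spread of either set.

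**Figure D1:**
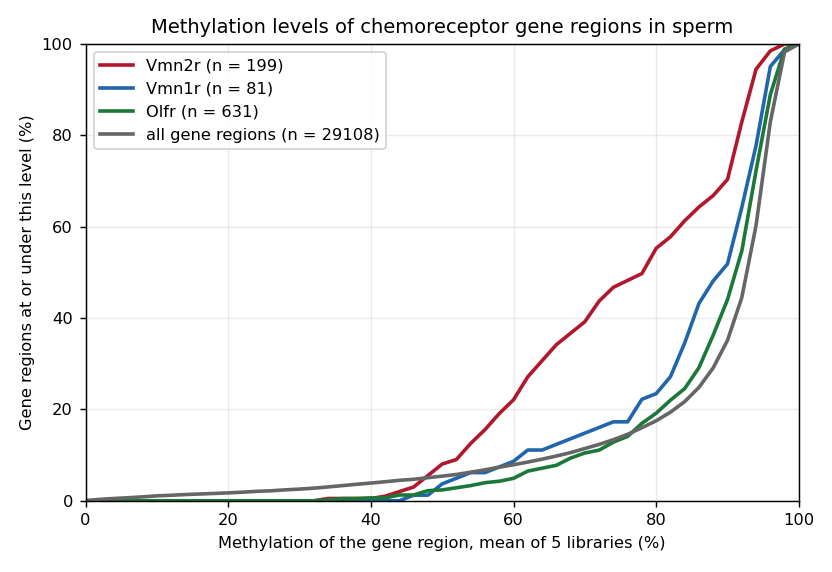
Cumulative share of gene regions (y axis, percent) at or under each methylation level (x axis, percent, mean of 5 libraries) for Vmn2r, Vmn1r, Olfr and all gene regions. The Vmn2r line leaves the others from about 50% upward and has its median at 78.1%, where the other medians are 89.3% or more.

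Intermediate levels were common at single CpGs of the family. With reads summed over libraries, 40.9% of the 5542 CpGs lay between 20% and 80%, 58.5% above 80% and 0.613% (34 CpGs) below 20%. Over all gene regions 10.3% lay between 20% and 80% and 2.10% below 20%. In single libraries 38.2% (old replicate 1) to 44.1% (young replicate 3) of the Vmn2r CpGs lay in the middle class. Of the 2268 CpGs between 20% and 80% in the summed reads, 1153 (50.8%) were in that class in each of the 5 libraries and 1738 (76.6%) in at least 4, against 31.8% and 62.3% of such CpGs over all gene regions; at 5 reads a CpG can leave the class by counting error alone. So Vmn2r regions held more intermediate CpGs than gene regions at large and, in summed reads, fewer below 20%. In young replicate 2 the shares below 20% were near equal, 2.92% and 2.94%, and in the other libraries the Vmn2r share was lower. The median member had 3.05 listed CpGs per kb, against 6.25 over all gene regions, 3.46 in Vmn1r and 4.06 in Olfr regions. Across the 199 members, Spearman's rho of level was 0.151 with listed CpGs per kb and 0.001 with relative coverage, as a description of regions that share libraries and neighbours.

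Where a gene lay went with its level. Genes under 1 Mb apart were joined into runs, named here by their first and last gene, which gave 30 runs and lone genes, 23 of them with a measured member. All 44 members under 60% were on chromosome 7 (33) or chromosome 17 (11). Chromosomes 6, 8 and 10 had every measured member at 90% or more, 10, 3 and 8 genes. Among the 15 runs with at least 3 measured members, run means went from 57.8% to 93.5%.

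**Figure D2:**
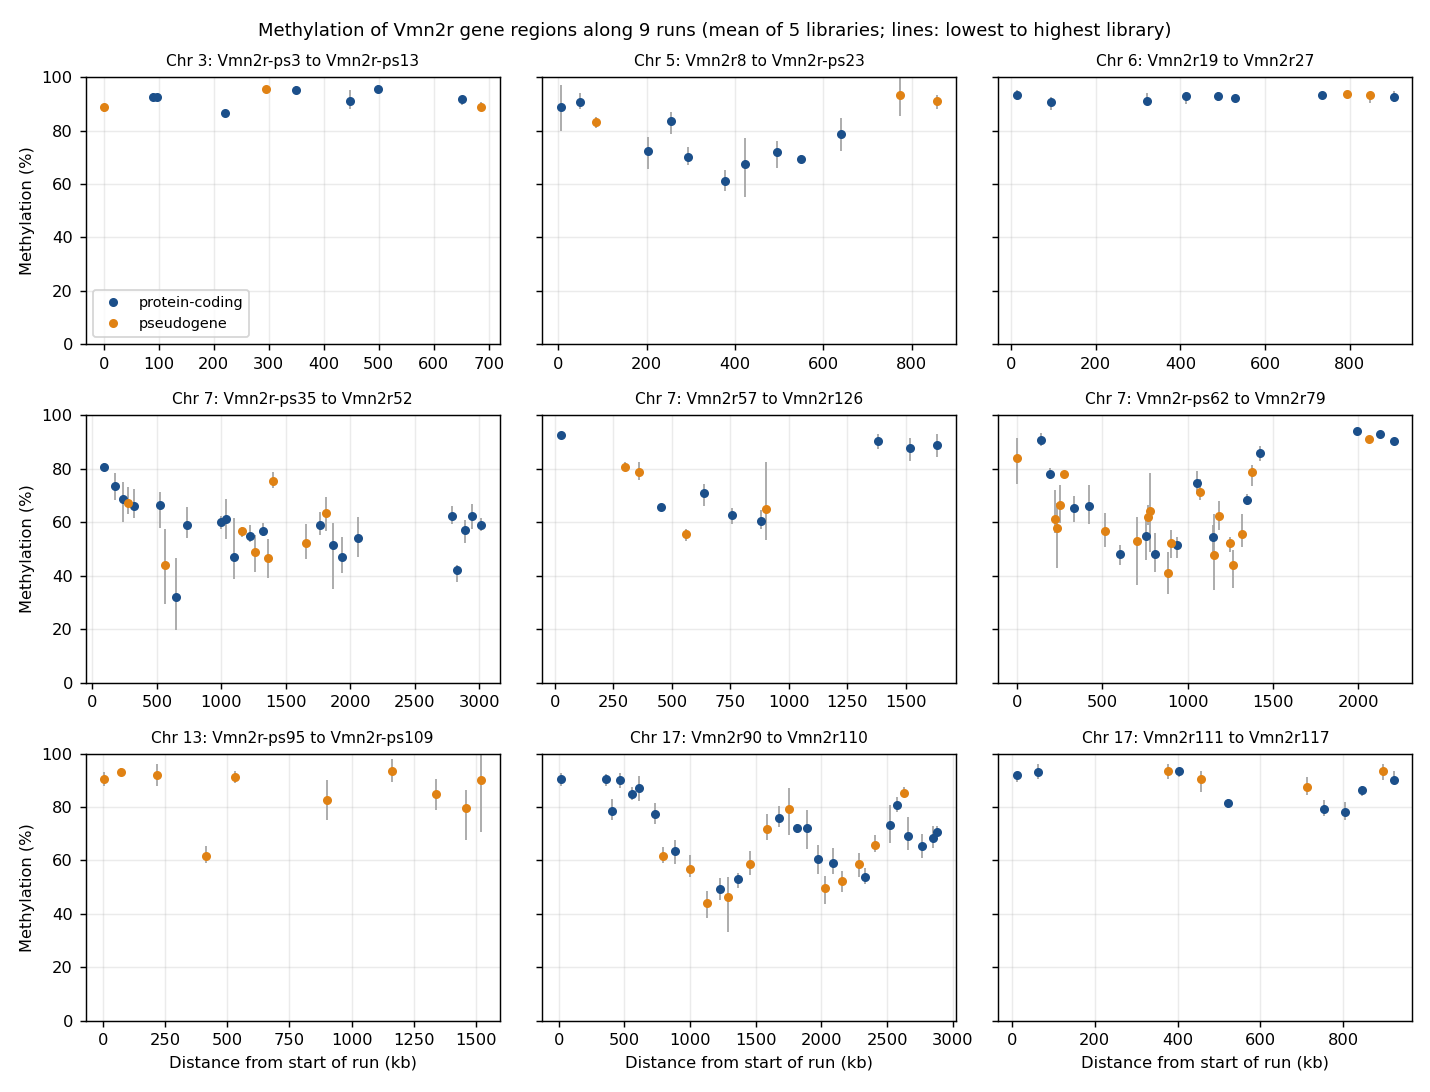
Methylation (y axis, percent) of each measured Vmn2r gene region against its distance in kb from the start of the run (x axis) for the 9 runs with at least 10 measured members; points are means of 5 libraries, coloured by gene type, and lines reach from the lowest to the highest library. The chromosome 3 and chromosome 6 runs are flat, with means of 91.9% and 92.6%, and the long chromosome 7 and chromosome 17 runs dip inside, to 32.2% at Vmn2r35, 40.9% at Vmn2r-ps73 and 44.3% at Vmn2r-ps117.

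Several runs were close to fully methylated. The chromosome 3 run, Vmn2r-ps3 to Vmn2r-ps13, holds Vmn2r1 to Vmn2r7, the genes known as family C, whose receptors are made together with other Vmn2r receptors in the same neurons. Their levels were 92.6%, 92.6%, 86.7%, 95.1%, 91.2%, 95.6% and 91.6% from Vmn2r1 to Vmn2r7, and the run's mean was 91.9% over 10 members. The region of Vmn2r1 holds that of Vmn2r2, and the region of Vmn2r7 overlaps that of the pseudogene Vmn2r-ps11. Levels within each pair therefore share CpGs and are not separate. Vmn2r3 was the lowest of the 7 at 86.9%, 85.4% and 86.8% in the young and 86.9% and 87.6% in the old libraries, under every other family C gene in each library. The chromosome 6 run, Vmn2r19 to Vmn2r27, had a mean of 92.6% and all 10 measured members between 90.9% and 93.7%. It includes Vmn2r26, a receptor for peptides bound by MHC class I, at 92.3%, 94.0% and 92.4% in the young and 94.4% and 94.0% in the old libraries. The chromosome 10 runs, Vmn2r-ps92 to Vmn2r83 and Vmn2r84 to Vmn2r87, were at 93.5% and 93.2%. The highest members of the family were 3 pseudogenes on chromosome 8, Vmn2r-ps88 at 97.4%, Vmn2r-ps89 at 96.8% and Vmn2r-ps90 at 96.0%, then Vmn2r86 at 95.9% and Vmn2r83 at 95.6%. On chromosome 14, Vmn2r88, a receptor for haemoglobin, and Vmn2r89 were at 93.8% and 94.8%, while the pseudogene Vmn2r-ps110 in the same run was at 63.1%.

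The least methylated run was Vmn2r-ps35 to Vmn2r52 on chromosome 7, between bases 7153726 and 10176286. Its 29 measured members had a mean of 57.8%, and 17 were under 60%. Run means were 55.2%, 54.2% and 60.2% in the young libraries and 61.9% and 57.5% in the old, so the age groups overlapped. The lowest member of the family was here: Vmn2r35 (bases 7786151 to 7819867) at 33.3%, 19.5% and 32.8% in the young and 46.7% and 28.6% in the old libraries, from 3 CpGs. With 3 CpGs its level is loosely set, as the range over libraries shows. Vmn2r49 (9976245 to 9992139), from 11 CpGs, was at 37.7%, 43.9% and 42.2% in the young and 43.3% and 44.1% in the old libraries, low in all 5. Vmn2r-ps38, at 44.0% from 4 CpGs, had one of the largest spreads, with 33.3%, 29.4% and 57.3% in the young libraries. The first gene with a value, Vmn2r29, was the highest at 80.7%. In this run 21 protein-coding members had a mean of 58.2% and 8 pseudogenes one of 56.8%. Vmn2r28, which stands alone before it, was at 56.8%. Here 82.2% of 405 CpGs were between 20% and 80%.

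Levels also changed along other long runs. In Vmn2r-ps62 to Vmn2r79 (chromosome 7, 84810427 to 87037968; 34 measured), Vmn2r65 near the start was at 90.9%. Farther along, levels were 48.1% at Vmn2r69, 40.9% at Vmn2r-ps73, 68.4% at Vmn2r75, 85.8% at Vmn2r76 and 94.0% at Vmn2r77. Vmn2r-ps83 in the same run had 43.3%, 35.3% and 49.6% in the young and 47.3% and 44.3% in the old libraries, low in all. In Vmn2r57 to Vmn2r126 (12 measured), the ends Vmn2r57 and Vmn2r126 were at 92.7% and 88.7% and the pseudogene Vmn2r-ps57 between them at 55.4%. On chromosome 5, Vmn2r8 to Vmn2r-ps23 (13 measured), Vmn2r9 was at 90.7%, Vmn2r13 at 61.1% and Vmn2r-ps23 at 91.1%. In Vmn2r90 to Vmn2r110 on chromosome 17 (17703941 to 20596259; 34 measured), Vmn2r90 and Vmn2r124 were at 90.5%, Vmn2r-ps117 was the lowest at 44.3%, Vmn2r99 came back to 75.8%, Vmn2r104 was at 53.8% and Vmn2r106 at 80.9%. This run did not end as methylated as it began: its last 4 genes, Vmn2r107 to Vmn2r110, were at 69.0%, 65.5%, 68.5% and 70.5%. Vmn2r-ps117 was at 41.3%, 38.6% and 48.5% in the young and 48.3% and 44.6% in the old libraries, below Vmn2r90 by 39.3 points or more in each. These courses are descriptions, and genes next to each other are not independent. Protein-coding members had a higher mean than pseudogenes in the runs Vmn2r90 to Vmn2r110 (72.1% of 22 against 60.8% of 12) and Vmn2r-ps62 to Vmn2r79 (70.9% of 15 against 62.1% of 19). The order was the other way in Vmn2r8 to Vmn2r-ps23 (75.5% of 10 against 89.2% of 3) and Vmn2r111 to Vmn2r117 (86.7% of 8 against 91.1% of 4).

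The second chromosome 17 run, Vmn2r111 to Vmn2r117 (12 measured), was more methylated, at 88.2%. It holds receptors whose ligands are known. Vmn2r116, the receptor for the male tear peptide ESP1, was at 85.7%, 84.1% and 86.8% in the young and 88.0% and 86.8% in the old libraries. Vmn2r115, a receptor for the juvenile tear peptide ESP22, was at 76.4%, 75.2% and 81.9% in the young and 80.8% and 75.6% in the old libraries, the lowest measured member of this run. Each library had Vmn2r116 above Vmn2r115, and the age groups overlapped in both.

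Space between genes was near the level of the member regions in some runs and several points from it in others. For Vmn2r90 to Vmn2r110, summed reads gave a mean over libraries of 67.6% in the member regions, 70.5% between genes of the run, 91.8% in the 1 Mb before it and 81.4% in the 1 Mb after it. For Vmn2r-ps35 to Vmn2r52 these were 62.6%, 57.2%, 88.3% and 70.2%. For Vmn2r-ps62 to Vmn2r79 they were 74.0%, 73.7%, 80.2% and 91.4%. In these 3 runs genes and gaps were both partly methylated, and the flank before the run lay above both in every library. In Vmn2r-ps35 to Vmn2r52 the gaps lay below the member regions in every library. As means over regions, the members of the 3 runs were at 68.1%, 57.8% and 66.0%. By that measure those of Vmn2r-ps62 to Vmn2r79 lay below its gaps. In Vmn2r57 to Vmn2r126 member regions were at 71.5% and gaps at 79.5%, and the non-Vmn2r genes annotated inside the run were at 89.9%. In the chromosome 6 run the members (92.8%) lay above the gaps (86.5%), and on chromosome 3 both were near the flanks (90.8% and 92.1%, against 92.7% and 88.6%). In summed reads members also lay above the gaps in Vmn2r8 to Vmn2r-ps23 (84.6% and 79.2%) and Vmn2r-ps53 to Vmn2r56 (85.5% and 78.5%). For Vmn2r8 to Vmn2r-ps23 this hung on the weighting, since the mean over its 13 measured member regions was 78.6%. Members lay below the gaps in Vmn2r-ps95 to Vmn2r-ps109 in summed reads (70.2% and 75.9%). There the mean over the 10 measured member regions was 85.9%, above the gaps, with Vmn2r-ps98 the lowest at 61.7%.

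**Figure D3:**
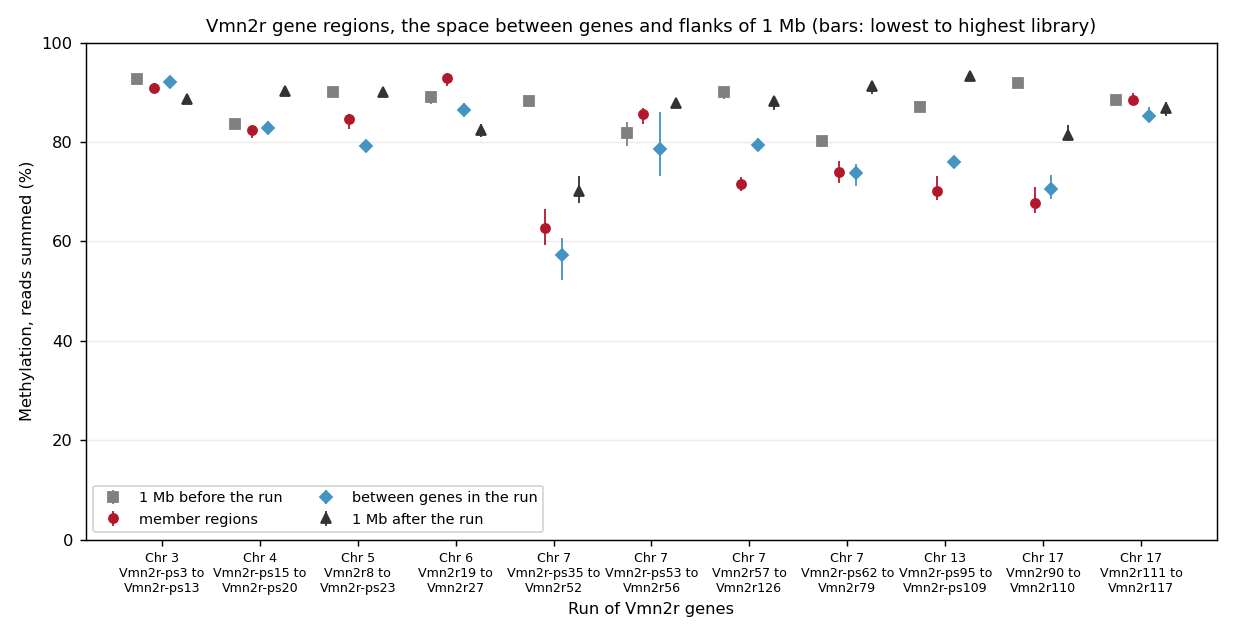
Methylation from summed reads (y axis, percent) in the 1 Mb before each run, the Vmn2r regions, the space between genes and the 1 Mb after, for 11 runs (x axis); symbols are means of 5 libraries and bars reach from the lowest to the highest library. In Vmn2r-ps35 to Vmn2r52 and Vmn2r90 to Vmn2r110 the regions (62.6% and 67.6%) and gaps (57.2% and 70.5%) lie below both flanks.

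Read depth is relevant in this family because reads from near-identical copies can pile up at one place. Relative to the median gene region of the same library, the median member had 1.14 times the coverage. The highest were Vmn2r65 (3.64 times, level 90.9%), Vmn2r42 (3.61 times, 61.3%) and Vmn2r113 (3.52 times, 93.6%), and the lowest Vmn2r-ps58 (0.440 times, 65.1%), Vmn2r14 (0.470 times, 67.4%) and Vmn2r-ps109 (0.503 times, 90.2%). High coverage therefore stood with high and middle levels alike, and what copies add to a level was not tested. Between young libraries the median SD was 2.80 points over members, against 1.99 over all gene regions. It was 2.07 over the 68 members with at least 30 CpGs and 4.66 over the 31 members with 3 to 5 CpGs. The largest SDs were 16.4 points in Vmn2r-ps72, 16.2 in Vmn2r-ps109 and 15.1 in Vmn2r-ps38, each on 3 or 4 CpGs.

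The series compares young with old sperm, and no Vmn2r region passed the test for a difference. A quasi-binomial model of methylated and unmethylated reads was fitted to all 29108 gene regions, with Benjamini-Hochberg adjustment over all of them, and a region counted as called at an adjusted p below 0.05 with a gap of 10 percentage points or more. It called 0 of 199 members, and 0% of all gene regions, with an adjusted p of 1 for every member. At an unadjusted p under 0.05 there were 12 members (6.03%), all higher in old sperm, where 1.87% of all gene regions reached that level and 1.11% did so with a higher value in old sperm. By limma on log2 odds the count was 7 (3.52%), of which 3 were higher in old sperm, against 3.59% of all regions. With every CpG that any library covers it was 6 (2.84%), against 4.03%. These shares lie at or below those of all gene regions, so the excess over 1.87% depends on the model and on the CpGs used. Without old replicate 1 the count was 5 (2.51%, against 0.886% of all regions), without young replicate 1 it was 7 (3.52%, against 1.22%) and without young replicate 3 it was 29 (14.6%, against 5.92%). The count moved with that of all regions and its share stayed above theirs in these 3 settings.

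Small differences leaned to higher values in old sperm. The old mean was above the young mean in 151 of 199 members (75.9%), against 53.2% of all gene regions. The lean was not particular to Vmn2r. It was also seen in Vmn1r (67.9% of 81) and Olfr regions (58.3% of 631), with mean differences of 1.53 and 0.996 points. Among Vmn2r members at 40% to 80% the old mean was higher in 85 of 109 (78.0%), against 55.1% of all regions at that level. Among the 68 members with at least 30 CpGs it was higher in 58 (85.3%), against 55.6%. Both old libraries were above all young ones in 33 members (16.6%, against 7.83% of all regions) and below them in 5 (2.51%, against 6.78%). The old mean was above the young in 97 of 117 protein-coding genes (82.9%) and in 54 of 82 pseudogenes (65.9%), and the gap between these shares was not tested. Averaged over members, young libraries had 74.2% ± 0.856 (SD, n = 3) and old ones 75.7% ± 1.05 (SD, n = 2), 1.43 points apart. Old replicate 2, at 74.9%, lay inside the young range of 73.4% to 75.1%, so the groups overlapped. Without old replicate 1 the gap was 0.685 points, with 120 members (60.3%, against 52.2% of all regions) higher. Without old replicate 2 it was 2.17 points, with 154 (77.4%, against 54.6%) higher. Leaving out young replicate 2 gave 140 (70.4%, against 60.3%) and leaving out young replicate 3 gave 136 (68.3%, against 41.7%), so the distance to all regions also hung on the young libraries. The order of the libraries, lowest in young replicate 2 and, among the young, highest in young replicate 3, was also that of the young libraries at the imprinted starts above; old replicate 1 was highest in the family and not there. All gene regions at 40% to 80% had the same order of the young libraries, at 65.1%, 64.1% and 67.8%. Over all gene regions it was the reverse, at 86.3%, 86.7% and 85.7%. What the order of the libraries contributed was not tested.

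**Figure D4:**
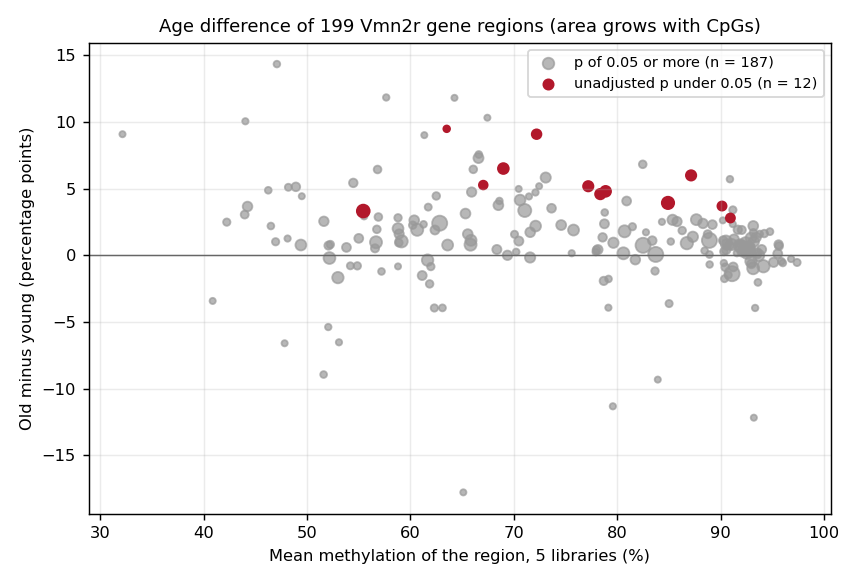
Difference of the old from the young mean (y axis, percentage points) against mean level (x axis, percent) for the 199 measured members; each point is 1 gene region, its area grows with its number of CpGs up to 100, and red marks an unadjusted p under 0.05. The 12 red points are all above 0 and below 10 points, and the points beyond 10 are small, from regions with 3 to 6 CpGs.

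The 3 members with the smallest p were neighbours in the Vmn2r90 to Vmn2r110 run on chromosome 17. Vmn2r94 (18243570 to 18285259; 61 CpGs) was at 83.7%, 82.6% and 83.7% in the young and 87.4% and 87.1% in the old libraries. Its groups did not overlap, with a difference of 3.93 points (unadjusted p = 0.00388 and adjusted p = 1 in the quasi-binomial model). Vmn2r93 (18298281 to 18326441; 38 CpGs) was at 84.7%, 87.4% and 82.1% in the young and 90.03% and 91.4% in the old libraries. Vmn2r95 (18424104 to 18452324; 38 CpGs) was at 73.5%, 76.4% and 75.5% in the young and 81.5% and 79.1% in the old libraries. Both had every old value above every young one, with differences of 5.99 and 5.18 points. Next to them, and named after their values were seen, Vmn2r91 was at 76.4%, 75.1% and 78.1% against 79.2% and 83.1%. Vmn2r92 was at 87.3%, 89.9% and 88.7% against 91.8% and 92.9%. These 5 genes stand between bases 18085057 and 18452324, and the lower old library was 1.09 (Vmn2r91) to 3.39 (Vmn2r94) points above the highest young one. Neighbouring genes are not independent, so the 5 do not count as 5 separate observations.

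**Figure D5:**
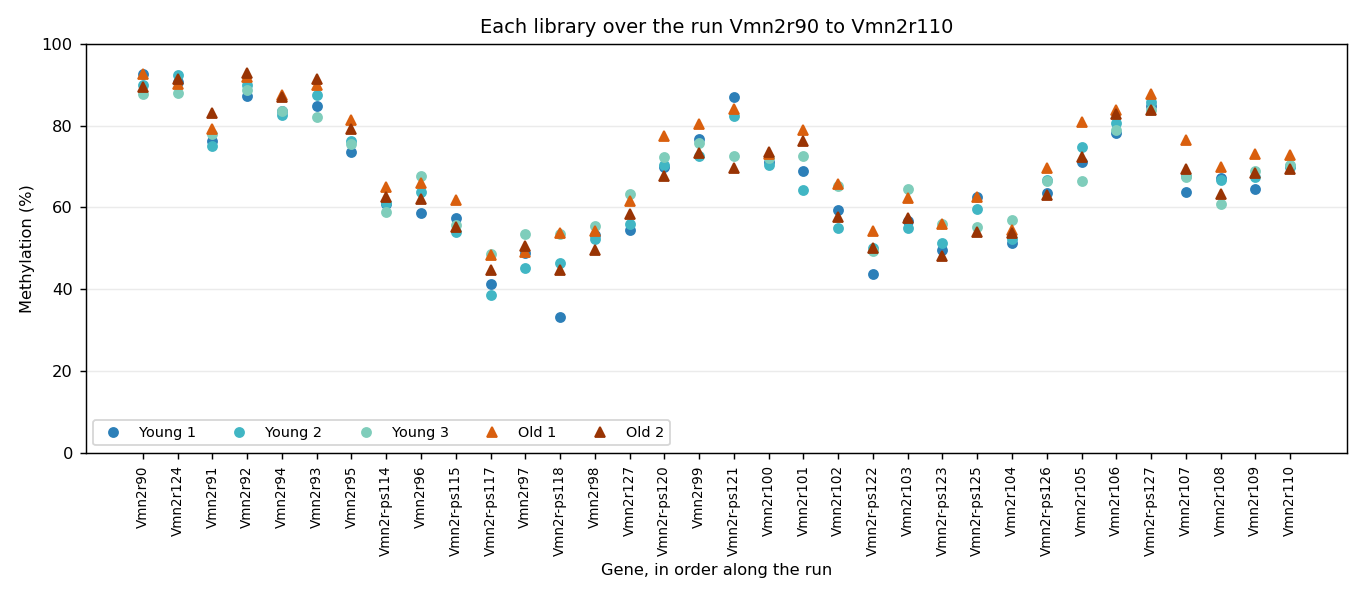
Methylation (y axis, percent) of the 34 measured genes of the chromosome 17 run, in order along it (x axis), with 1 symbol per library, circles for the 3 young and triangles for the 2 old. From Vmn2r91 to Vmn2r95 both triangles lie above the circles, and across the rest old replicate 1 is often highest while old replicate 2 lies among the young libraries.

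Over that whole run 30 of 34 members had the higher mean in old sperm, 10 with no overlap in that direction and 7 at an unadjusted p under 0.05, where the shares over all gene regions were 53.2%, 7.83% and 1.87%. The run is described because it held the smallest p-values, so these counts are no separate support. Its mean was 66.4%, 66.9% and 68.1% in the young and 71.7% and 67.5% in the old libraries. Old replicate 1 was above all young libraries and old replicate 2 within their range. The same held in the space between genes of the run, at 68.7%, 68.6% and 71.2% against 73.3% and 70.8% in summed reads. The other 2 of the 7 were Vmn2r101, at 68.8%, 64.2% and 72.6% against 79.0% and 76.3%, and Vmn2r107, at 63.9%, 67.7% and 67.5% against 76.4% and 69.4%. Neither pair of groups overlapped, and the gaps between groups, 3.70 and 1.64 points, were smaller than the young ranges. On chromosome 7, Vmn2r-ps56 (41744737 to 41772910; 43 CpGs) was at 76.8%, 78.3% and 75.7% against 80.8% and 82.7%. Vmn2r-ps42 (8953866 to 8970092; 6 CpGs) was at 56.5%, 59.6% and 63.0% against 69.5% and 69.0%, with 3.33 times the usual coverage. The remaining 3 at that level, Vmn2r65, Vmn2r-ps36 and Vmn2r-ps57, differed by 2.80, 5.27 and 3.32 points, and the first 2 had 3.64 and 2.97 times the usual coverage.

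Lower values in old sperm were found in 48 members, with a median of 9.5 CpGs where the 151 higher ones had 23, and 10 of the 48 held at least 30 CpGs. The 5 with the smallest p rested on 3 to 5 CpGs. Vmn2r-ps22 (chromosome 5, 109566230 to 109573269; 3 CpGs) was at 100%, 100% and 94.2% in the young and 86.5% and 85.3% in the old libraries (unadjusted p = 0.0553, quasi-binomial model). Vmn2r-ps134, Vmn2r-ps108, Vmn2r-ps58 and Vmn2r-ps62 came next, with old sperm lower by values of -3.95, -11.3, -17.8 and -9.33 points. In the first 3 of these both old libraries lay below all young ones, and in Vmn2r-ps62 they overlapped. None of the 48 reached an unadjusted p under 0.05.

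Among the other runs with at least 4 measured members, Vmn2r-ps53 to Vmn2r56 on chromosome 7 had all 5 members higher in old sperm, 3 of them with no overlap, beside 53.2% and 7.83% over all gene regions. Its mean was 84.6%, 85.6% and 83.5% in the young and 87.7% and 86.6% in the old libraries, with no overlap. Vmn2r84 to Vmn2r87 on chromosome 10 was at 92.0%, 92.2% and 93.1% against 94.5% and 94.2%, also without overlap, though only 1 of its 4 genes, Vmn2r84, had non-overlapping groups. The run Vmn2r111 to Vmn2r117 had 88.2% ± 0.118 (SD, n = 3) and 88.2% ± 1.12 (SD, n = 2), with 7 of 12 members higher. The pseudogene run Vmn2r-ps95 to Vmn2r-ps109 had 86.3% ± 1.22 (SD, n = 3) and 85.5% ± 0.0650 (SD, n = 2). No test was run on run means.

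Tiles of 1000 bases gave a finer view. In 794 tiles that overlap a Vmn2r region the same model, adjusted over 312160 tiles, called 0, as it did for 0% of all tiles. At an unadjusted p under 0.05 there were 40 (5.04%, against 3.21% of all tiles), 35 with higher and 5 with lower values in old sperm; by limma there were 21 (2.64%, against 4.28%). Without old replicate 1 there were 9 (1.13%, against 1.25%), so under these settings the share was below that of all tiles. The old mean was above the young in 504 tiles (63.5%, against 52.4%). In Vmn2r105 the tile at 20221001 to 20222000 of chromosome 17, with 5 CpGs, was at 68.5%, 78.1% and 60.3% in the young and 88.5% and 80% in the old libraries. In Vmn2r53 the tile at 12589001 to 12590000 of chromosome 7, with 6 CpGs, was at 76.5%, 73.7% and 79.1% against 89.0% and 85.1%. In both, every old value was above every young value. Lower in old sperm was the tile at 41972001 to 41973000 of chromosome 7 in Vmn2r-ps57, at 79.1%, 84.6% and 71.6% against 61.2% and 55.1%, although the whole region of Vmn2r-ps57 was higher in old sperm by 3.32 points. The tile at 19068001 to 19069000 of chromosome 17 in Vmn2r98 was at 48.3%, 55.2% and 61.0% against 38.2% and 36.4%.

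Tiles with little methylation were rare. The median Vmn2r tile was at 83.5%, against 94.5% for all tiles, and 135 (17.0%, against 53.2%) were above 90% in every library. Only 15 tiles (1.89%, against 1.68% of all tiles) were under 50% in every library. The lowest was in the region of the chromosome 4 pseudogene Vmn2r-ps18, at 147125001 to 147126000, with 20.8%, 12.8% and 11.4% in the young and 7.55% and 18.99% in the old libraries. The next, in Vmn2r-ps17 at 146240001 to 146241000, was at 11.8%, 11.4% and 26.7% against 13.2% and 10.9%. In Vmn2r90, a gene at 90.5% as a whole, the tile at 17714001 to 17715000 of chromosome 17 with 5 CpGs was at 40%, 25% and 22.4% against 23.2% and 18.0%. All 5 libraries thus had this low stretch inside an otherwise methylated gene. The Vmn2r-ps117 tile at 18832001 to 18833000 was at 27.2%, 23.2% and 32.4% against 29.9% and 29.5%.

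Other genes of the same sensory system were taken from lists of ligands and signalling parts. Of 15 genes for signalling and identity of vomeronasal neurons, 11 were measured, with a median of 93.3%. In the quasi-binomial model 0 of the 11 were called and 0 had an unadjusted p under 0.05. Over all gene regions the shares were 0% and 1.87%, so counts of 0 in lists this small say little. Trpc2, the channel that carries the receptor current, was at 98.3% and Gnao1 at 88.6%. Gng8, a G protein gamma subunit of these neurons, was the exception at 32.9%, with 35.0%, 27.3% and 37.6% in the young and 29.7% and 34.8% in the old libraries. Esp genes encode the tear and saliva peptides that some of these receptors detect. Of 15, 14 were measured, with a median of 78.0%, near the 78.1% of the receptors. They ranged from 33.2% in Esp31 to 95.6% in Esp8, and Esp1, the ligand of the Vmn2r116 receptor, was at 79.1%. Old sperm had the higher mean in 10 of the 14, against 53.2% of all gene regions. Of the 14, 0 were called or under an unadjusted p of 0.05, against 0% and 1.87% of all gene regions. Mup genes, for urinary proteins that bind pheromones, had 7 of 22 measured, with a median of 92.6% and 0 called, against 0% of all gene regions. Of the 9 H2-M genes, nonclassical MHC class I genes expressed with Vmn2r receptors, H2-M10.5 alone was measured, at 97.2%, and none of 5 annotated formyl peptide receptor genes was.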

How the data were processed

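The submitters' processing notes name Trim Galore 0.4.3, methylKit 1.4.0 and Bismark 0.16.3, and the build mm10 (GRCm38). What settings were used, and whether duplicates were removed, is not given in the sources used here. Deposited files give, per the file headers, coverage as a read count for each cytosine and strand and the percent of those reads with C and with T. The lowest listed coverage was 5 reads, so the authors' files leave out shallower sites. Percent times coverage gave methylated reads, whole for 100% of cytosines within the rounding of the deposited percent to 2 decimals.

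Reads of both strands were summed per CpG. Regions and runs came from a RefSeq table (GRCm38.p6) that matched all members by symbol; exons, introns and UTRs were not analysed here. Of 74244 listed CpGs inside RefSeq start windows, 99.99% fell on a CG. Family and run levels are means over regions; context levels are from summed reads. A binomial logistic model, old against young, had a dispersion shrunk over all features by the method of squeezeVar (limma) and held at 1 or more; it was tested on simulated data. The alternative was limma 3.58.1 in R 4.3.3 on log2((methylated + 1)/(unmethylated + 1)), with the count of reads as deposited. The rest ran in Python 3.11.15 with scipy 1.17.1, numpy 2.4.6, matplotlib 3.10.9 and pandas 2.3.3. Reads without molecular identifiers are no count of molecules, and aligned reads of near copies can add to one place.

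Members, lists and tests were chosen with earlier results of these data known. Named members were the 5 with the smallest p in each direction, the 5 lowest and 5 highest levels, the 3 largest SDs, the 3 highest and 3 lowest coverages, and family C. Other genes are named for their place in a run or known ligand and were picked after their values were seen, as were the imprinted genes: of 12 such genes listed, 9 had CpGs listed near a start and 2 had CpGs with 5 reads in every library. Alternatives covered coverage limits, the span, the CpG set, weighting, the model, tile width, run gap, the replicate number and leaving out single libraries.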

Additional observations from a re-analysis of the deposited data

How the results depend on the processing

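No region of the family was called under any alternative, and 1 tile was called under a plain binomial model, which ignores spread between libraries. The count with higher values in old sperm (151 of 199) was 92 of 117 with at least 20 reads per CpG, and 120 (without old replicate 1) to 154 with 1 library left out. The count at an unadjusted p under 0.05 (12, or 6.03% against 1.87% of all regions) was 6 with every CpG a library covers (2.84% against 4.03%), 19 with each CpG weighted equally (9.55% against 3.40%), 7 by limma (3.52% against 3.59%), 42 by the binomial model (21.1% against 13.9%), and 5 to 29 with 1 library left out. For tiles (40, or 5.04% against 3.21%) it was 20 of 388 at 10 reads (5.15% against 2.70%), 11 of 262 with at least 5 CpGs (4.20% against 2.76%), 21 by limma (2.64% against 4.28%), 96 by the binomial model (12.1% against 9.49%), and 9 to 43 with 1 library left out (24 without young replicate 1, 3.02% against 2.26%). The gap between the lowest and highest run mean (35.7 points) was 31.8 with genes under 3 Mb apart joined, 30.7 from summed reads, 32.5 at 10 reads and 31.7 at 20 reads. Fewer regions were tested at higher coverage; for the other changes the cause was not tested. The 10 named age differences kept their direction in all 127 alternatives run. They were picked for a small p, and in all but Vmn2r-ps62 the groups did not overlap. Leaving out 1 library could not reverse those, so that part is no support. Of 88 alternatives for named tiles, 1 reversed, the Vmn2r-ps23 tile at 109707001 of chromosome 5. Its difference was -9.59 points with all libraries and between -20.2 and 1.03 (without old replicate 1) with 1 library left out. In the named tiles the groups overlapped only in Vmn2r-ps23. For the levels of 23 named regions, 22 of 138 alternative values moved by the young SD of the region or more. Members that share no CpG with another, protein-coding members alone and CpG classes at 10 reads were alternatives chosen after seeing the data, and they gave family differences of 1.45 and 2.00 points and 40.8% of CpGs in the middle class.

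Over all gene regions, deviations from the group means of libraries with the same replicate number correlated at 0.002 and -0.058. With 2 old libraries these deviations mirror each other, so the other old library gives the same value with the opposite sign. The values therefore cannot settle whether replicate numbers pair libraries. With the replicate block, which drops young replicate 3, the family difference was 1.88 points, 21 regions (10.55%, against 3.97% of all) and 10 tiles (1.26%, against 0.506%) had an unadjusted p under 0.05, and 0 were called.

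Depth limits these data: 52 of 251 members had under 3 usable CpGs, and the median member had 342 to 456 reads per library. The median SD over young libraries was 4.66 points in members with 3 to 5 CpGs. Differences of -17.8 points in Vmn2r-ps58 (3 CpGs, unadjusted p = 0.168 in the quasi-binomial model) and -11.3 points in Vmn2r-ps108 (4 CpGs, p = 0.152) did not pass, and the smallest difference detectable at such depth was not computed.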
